A study of Oryctolagus cuniculus with 16 samples.

Results

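The results concern 6 rabbit genes whose levels in microglia were higher after adenoviral delivery of PPARg. They are 6 of the 23669 genes in the count tables. They were chosen by their low p-values in the microglial treatment comparison, and in part by where they lie: 4 of them form 2 neighbouring pairs on 1 strand. That comparison is therefore described here without a test. Tests of the 6 genes are given only in the OPC libraries and for co-variation within treatments. The latter is a relation the choice did not use, but it was computed in the same microglia libraries. The files list Ensembl rabbit identifiers without gene names, and 0 of these identifiers matched the reference table of 38822 rabbit genes, so the genes carry no name or function here.

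All libraries came from premature New Zealand rabbit kits with moderate-to-severe intraventricular haemorrhage, a bleed into the fluid-filled ventricles of the immature brain. Kits were injected into the ventricle with 5 µl of an adenovirus that encoded green fluorescent protein either with PPARg (Ad-PPARg) or without it (Ad-GFP, the control), in both cases from the CMV promoter, which is not restricted to a cell type. Microglia (CD11b-positive cells with low CD45) and O4-positive oligodendrocyte progenitor cells (OPC) were sorted from the cerebral hemispheres at day 7 and sequenced, with 4 libraries in each of 4 groups. Every group carried the haemorrhage and a virus, and no kit without either was analysed here. The 16 libraries came from 10 animals, of which 6 gave both cell types.

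PPARg is a nuclear receptor that is activated by fatty acids and their derivatives and binds DNA together with a retinoid X receptor. Its target genes take up, store and burn lipid, and in macrophages it also restrains inflammatory transcription. Microglia are the macrophages of the brain and clear blood and debris after a haemorrhage, and OPC give rise to the cells that make myelin.

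Totals ran from 6.24 to 17.6 M (mega) counts a library. In 5 libraries the mitochondrial genes from position 7000 on summed to 51.1 to 107 CPM (a gene's counts per mega-count of its library), against 8711 to 19510 CPM in the other 11. These were all libraries whose animal identifier began with K188, K196 or K193: microglia Ad-PPARg replicates 1 and 2, microglia Ad-GFP replicate 1, and OPC Ad-PPARg replicates 1 and 4. The labels do not say what the first part of the identifier, called the prefix here, stands for. Each treatment held 3 prefixes in microglia and none was shared by both treatments, so that prefix and treatment cannot be told apart beyond a comparison of 3 prefixes with 3. Microglia Ad-PPARg replicate 1 and OPC Ad-PPARg replicate 4 had the lowest similarity to the other libraries of their cell type, with median Spearman correlations of 0.941 and 0.953, against 0.957 to 0.983 in the other 14. The sorted cell types could not be checked against named markers. Instead, 823 genes at least 16-fold higher in the microglia libraries made up 21.4 to 26.7% of counts in microglia and 0.575 to 1.18% in OPC, and 742 genes at least 16-fold higher in OPC made up 0.101 to 0.495% of counts in microglia. Both classes were defined by that difference.

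The chromosome 5 pair lay on the plus strand. ENSOCUG00000017453 covered 22576123 to 22583107 with 11 exon entries and 1605 annotated bases, and ENSOCUG00000026015 covered 22586307 to 22596405 with 13 exon entries and 1686 bases, 3199 bases further on. ENSOCUG00000002957 covered 43153367 to 43168379 on the minus strand of chromosome 13, in 2 exons and 2314 bases. ENSOCUG00000014450 covered 115393840 to 115501602 on the plus strand of chromosome 2, with 16 exon entries and 3003 bases. The chromosome 1 pair lay on the minus strand, ENSOCUG00000009084 at 192877798 to 192890250 with 2400 bases and ENSOCUG00000010079 at 192903909 to 192921671 with 1317 bases, each with 7 exon entries. The 13658 bases between them held 1 other gene, at 192893625 to 192894824, at 0.116 CPM in Ad-PPARg microglia and 0.0689 CPM in Ad-GFP microglia. Coordinates are those of the files, and their genome build is not given in the sources used here.

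In microglia, ENSOCUG00000026015 stood at 28.1, 43.8, 39.6 and 31.9 CPM in Ad-PPARg replicates 1 to 4 and at 7.16, 9.19, 12.8 and 14.4 CPM in Ad-GFP replicates 1 to 4. Every Ad-PPARg library was above every Ad-GFP library. The means were 35.9 ± 7.15 and 10.9 ± 3.32 CPM (SD, n = 4 each), and the fitted log2 fold change was 1.73 (SE 0.24). Its neighbour ENSOCUG00000017453 stood at 20.5, 19.3, 29.4 and 23.6 CPM after Ad-PPARg and at 3.78, 7.60, 8.62 and 11.2 CPM after Ad-GFP. The groups were again apart, with the lowest value in Ad-GFP replicate 1 for both genes of the pair. Its means were 23.2 ± 4.49 and 7.79 ± 3.07 CPM (SD, n = 4 each), and the fitted log2 fold change was 1.59 (SE 0.29).

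ENSOCUG00000002957 showed the narrowest Ad-PPARg group of the 6, at 32.3, 30.2, 28.1 and 31.8 CPM, against 4.18, 5.19, 5.65 and 12.7 CPM after Ad-GFP. The groups did not overlap, and Ad-GFP replicate 4 stood above the other 3 control libraries. The means were 30.6 ± 1.89 and 6.92 ± 3.87 CPM (SD, n = 4 each), and the fitted log2 fold change was 2.18 (SE 0.31). ENSOCUG00000014450 was the lowest of the 6 and had the smallest fold change. It stood at 19.0, 11.0, 15.7 and 15.0 CPM after Ad-PPARg and at 6.03, 3.93, 5.00 and 8.19 CPM after Ad-GFP. Here too the groups were apart. Its means were 15.2 ± 3.32 and 5.79 ± 1.82 CPM (SD, n = 4 each), and the fitted log2 fold change was 1.41 (SE 0.26).

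The chromosome 1 pair had the widest spread after Ad-PPARg. ENSOCUG00000009084 stood at 44.3, 16.9, 75.3 and 55.8 CPM after Ad-PPARg and at 4.74, 11.3, 8.86 and 17.9 CPM after Ad-GFP. ENSOCUG00000010079 stood at 60.5, 20.1, 104.5 and 60.7 CPM after Ad-PPARg and at 10.5, 14.8, 12.7 and 26.7 CPM after Ad-GFP. In both genes the groups overlapped, because Ad-PPARg replicate 2 was below Ad-GFP replicate 4. The means were 48.1 ± 24.4 and 10.7 ± 5.50 CPM for ENSOCUG00000009084 (SD, n = 4 each), and the fitted log2 fold change was 2.19 (SE 0.49). They were 61.5 ± 34.5 and 16.2 ± 7.22 CPM for ENSOCUG00000010079 (SD, n = 4 each), and the fitted log2 fold change was 1.95 (SE 0.47). When all 16 libraries were put on 1 scale, ENSOCUG00000009084 no longer overlapped, with 21.0 CPM in Ad-PPARg replicate 2 and 20.3 CPM in Ad-GFP replicate 4. These 2 values differed by less than the spread within either group. As the RNA came from pools of sorted cells, a higher level in each cell and a larger share of cells with the gene cannot be told apart.

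**Figure D1:**
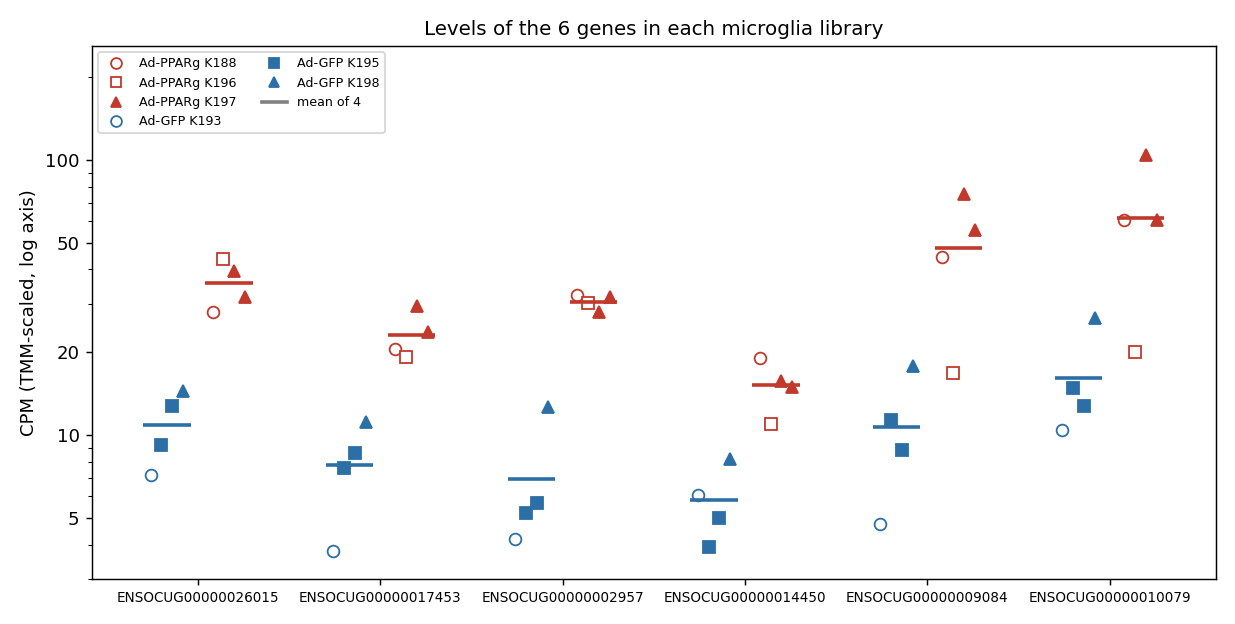
Level of each gene in each microglia library, in CPM scaled by TMM (a scaling of library totals) on a log axis. Red stands for Ad-PPARg, blue for Ad-GFP, the symbol for the prefix, open symbols for libraries with the low mitochondrial genes, and lines for means of 4. The groups are apart in the 4 genes on the left, and in the 2 genes on the right the open red square, Ad-PPARg replicate 2, lies below the blue triangle, Ad-GFP replicate 4.

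Groups apart in 4 of the 6 genes are to be set beside 240 of the 13041 genes tested in microglia, or 1.84%, whose Ad-PPARg libraries were all above the Ad-GFP libraries. As the genes were selected on this comparison, nothing is read from that share. By p the 6 genes stood at ranks 2, 3, 8, 9, 36 and 68 of 13041, and at ranks 1, 2, 3, 4, 18 and 29 of the 6986 genes with a higher fitted level after Ad-PPARg. No gene of the microglial comparison passed an adjusted p of 0.05 in edgeR (0 of 13041, 0%), while 1488 had an unadjusted p under 0.05, of which 635 were higher, and DESeq2 called 102. The last of the 6 by p, ENSOCUG00000010079, was preceded by a gene at 15593649 to 15674214 on chromosome 3, with a log2 fold change of -0.76. It was followed by a gene at 335429 to 343268 on scaffold GL018767, with a log2 fold change of -1.66. The median log2 fold change of all genes tested was 0.03, and 109 genes had one at least as high as ENSOCUG00000014450, the smallest of the 6.

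Levels were compared between the genes per length. In Ad-PPARg microglia ENSOCUG00000010079 averaged 46.7 RPKM (CPM per kilobase of annotated exon), followed by ENSOCUG00000026015 at 21.3, ENSOCUG00000009084 at 20.0, ENSOCUG00000017453 at 14.5 and ENSOCUG00000002957 at 13.2 RPKM. ENSOCUG00000014450 came last at 5.06 RPKM. The libraries of each of the first 4 genes overlapped those of the next in this order, whereas those of ENSOCUG00000014450, at most 6.34 RPKM, lay below all of ENSOCUG00000002957, at least 12.1 RPKM. In Ad-GFP microglia ENSOCUG00000010079 was again highest at 12.3 RPKM and ENSOCUG00000014450 lowest at 1.93 RPKM. Among all genes tested, the mean CPM of the 6 genes lay between percentiles 35.5 and 64.3, which is near the middle.

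The low mitochondrial genes divided both treatments, and the direction was the same on either side of that divide. Among the libraries with the low mitochondrial genes, 2 Ad-PPARg libraries stood against 1 Ad-GFP library, and the ratio of means ran from 2.49 for ENSOCUG00000014450 to 7.47 for ENSOCUG00000002957. Among those with the full mitochondrial genes, 2 Ad-PPARg libraries stood against 3 Ad-GFP libraries, and the ratio ran from 2.69 for ENSOCUG00000014450 to 5.17 for ENSOCUG00000009084. On each side the Ad-PPARg libraries were above the Ad-GFP libraries in the 6 genes, which were picked for this difference. The share of all genes apart in this way is not given here, so nothing is read from that. With 2 against 1 and 2 against 3 libraries the values are given without a test. A fit with the mitochondrial difference as a covariate gave log2 fold changes of 1.41 to 2.49, and a fit of the 5 full libraries alone gave 1.47 to 2.41.

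By prefix, the picture separated the chromosome 1 pair from the other 4 genes. The lowest Ad-PPARg prefix mean was 2.36 times the highest Ad-GFP prefix mean for ENSOCUG00000002957, 1.95 times for ENSOCUG00000026015, 1.73 times for ENSOCUG00000017453 and 1.34 times for ENSOCUG00000014450. It was 0.944 times for ENSOCUG00000009084 and 0.754 times for ENSOCUG00000010079, since K196 on the Ad-PPARg side was below K198 on the Ad-GFP side. Over all genes, libraries of 1 prefix were alike, with a consensus correlation of 0.534 in microglia, so libraries of 1 prefix are not independent. With counts summed per prefix, 3 against 3, the log2 fold changes were 1.74 (SE 0.28) for ENSOCUG00000026015, 1.54 (SE 0.36) for ENSOCUG00000017453, 2.10 (SE 0.38) for ENSOCUG00000002957 and 1.29 (SE 0.30) for ENSOCUG00000014450. They were 1.99 (SE 0.60) for ENSOCUG00000009084 and 1.72 (SE 0.55) for ENSOCUG00000010079. The part of the prefix in the differences was not tested.

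**Figure D2:**
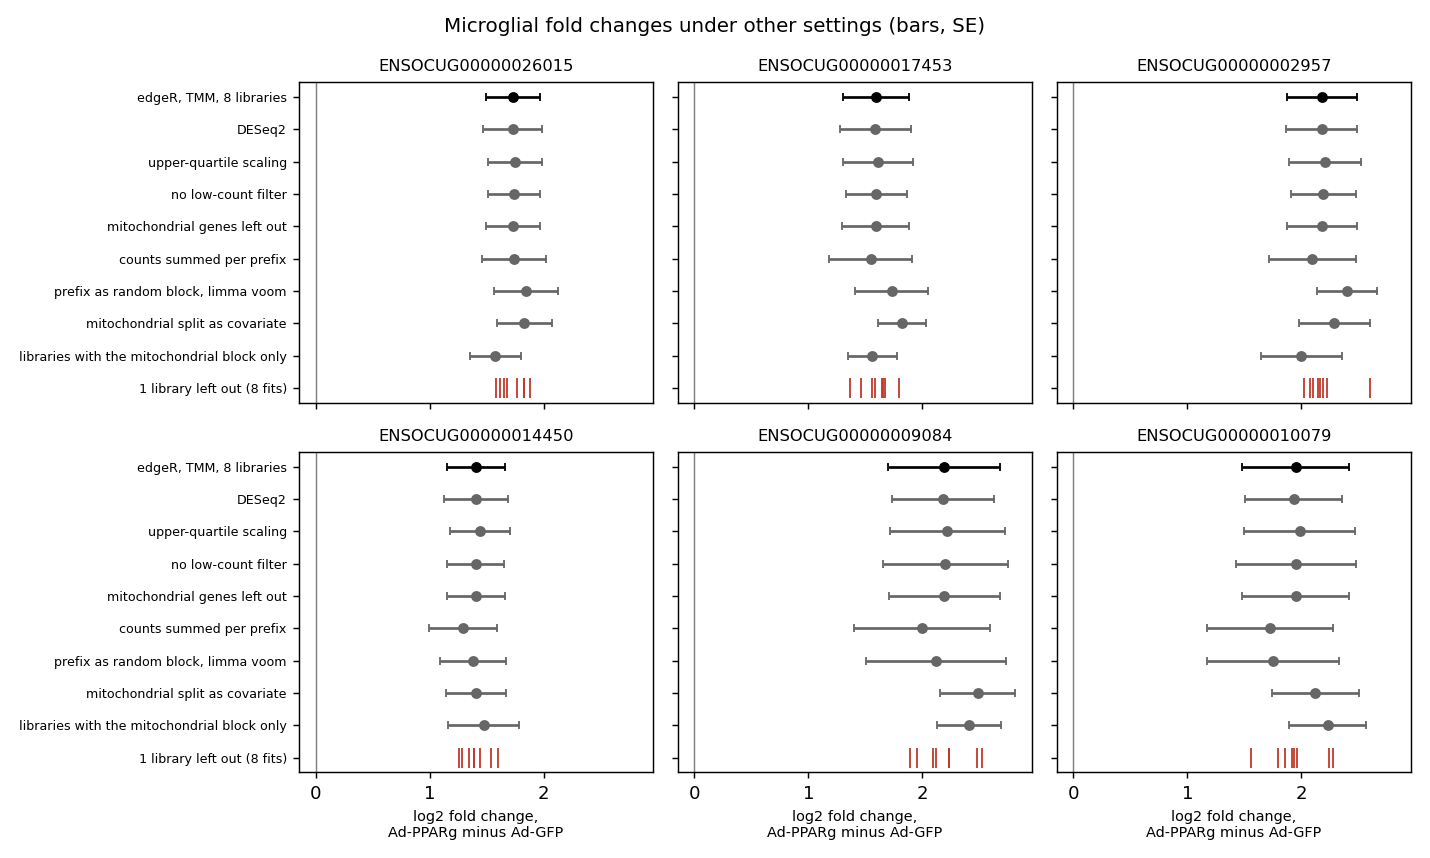
Log2 fold change of each gene in microglia, Ad-PPARg minus Ad-GFP, under each setting, with bars for the SE, and in the bottom row as 1 red mark for each of the 8 fits that leave out 1 library. All values lie above 0, from 1.26 for ENSOCUG00000014450 to 2.60 for ENSOCUG00000002957, both with 1 library left out.

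Leaving out 1 library at a time moved ENSOCUG00000026015 between 1.58 and 1.88, ENSOCUG00000017453 between 1.37 and 1.79, and ENSOCUG00000014450 between 1.26 and 1.60. The chromosome 1 genes moved more, ENSOCUG00000009084 between 1.89 and 2.52 and ENSOCUG00000010079 between 1.56 and 2.28. ENSOCUG00000002957 moved between 2.02 and 2.60. These fits use libraries that chose the genes, so the narrow ranges are a description of the same 8 libraries.

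OPC did not take part in choosing the genes. In OPC, 5 of the 6 genes had few counts, 0 to 25 a library. ENSOCUG00000026015 had 2, 10, 1 and 3 counts in Ad-PPARg replicates 1 to 4 and 8, 2, 6 and 5 counts in Ad-GFP replicates 1 to 4. ENSOCUG00000017453 had 0, 12, 4 and 3 counts after Ad-PPARg and 0, 1, 8 and 2 after Ad-GFP. The 2 groups overlapped in both genes. ENSOCUG00000002957 had 2, 25, 7 and 7 counts after Ad-PPARg and 2, 4, 16 and 2 after Ad-GFP. ENSOCUG00000009084 had 1, 18, 1 and 7 after Ad-PPARg and 4, 8, 16 and 2 after Ad-GFP, and ENSOCUG00000010079 had 2, 18, 4 and 5 after Ad-PPARg and 2, 3, 11 and 3 after Ad-GFP. All of these groups overlapped, and the highest library of each gene other than ENSOCUG00000026015 was Ad-PPARg replicate 2 among the Ad-PPARg libraries and Ad-GFP replicate 3 among the Ad-GFP libraries.

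Those same OPC libraries had the highest shares of counts on the 823 microglia-enriched genes, 1.18% in Ad-PPARg replicate 2 and 1.03% in Ad-GFP replicate 3, against 0.575 to 0.871% in the other 6. Summed over the 5 genes, they held 83 and 57 counts, against 7 to 25 elsewhere. The 823 microglia-enriched genes, which exclude the 6, stood in OPC at 2.35 to 4.84% of their mean share in microglia. The 5 genes stood at 0.861 to 2.62% of their microglial level after Ad-PPARg and at 3.22 to 9.27% after Ad-GFP, on raw totals. Their OPC means were 0.316 to 0.823 CPM after Ad-PPARg and 0.318 to 0.743 CPM after Ad-GFP. The microglial levels they were divided by are those that chose the genes. These percentages are also of group means, whereas the 2.35 to 4.84% are of single libraries over both treatments. The part of microglial RNA in these OPC counts was not tested.

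ENSOCUG00000014450 was the exception, with 126 to 770 counts in the OPC libraries. It stood at 52.2, 57.7, 52.0 and 11.8 CPM in OPC Ad-PPARg replicates 1 to 4 and at 44.6, 41.2, 51.9 and 52.1 CPM in Ad-GFP replicates 1 to 4. The groups overlapped, and only Ad-PPARg replicate 4, the K196 library with the low mitochondrial genes, stood far below the rest. The other OPC library with the low mitochondrial genes, Ad-PPARg replicate 1, stood at 52.2 CPM. The means were 43.4 ± 21.3 and 47.5 ± 5.42 CPM (SD, n = 4 each). The log2 fold change was -0.13 (SE 0.40, 95% interval -1.03 to 0.78), with an adjusted p of 1.00 in edgeR's quasi-likelihood test. Without replicate 4 it was 0.18 (SE 0.12, edgeR adjusted p 0.757), and among the libraries with full mitochondrial genes it was 0.21 (SE 0.12, edgeR adjusted p 0.511). With the prefix as a random block in limma, where OPC libraries of 1 prefix had a consensus correlation of 0.809 over all genes, it was -0.46 (SE 0.52, limma adjusted p 1.00). In OPC no gene was called at all (0 of 13492, 0%) in edgeR, with 166 genes under an unadjusted p of 0.05 and 7 called by DESeq2. With edgeR, 47 genes were called among the OPC libraries with full mitochondrial genes and 1 with the mitochondrial difference as a covariate.

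The other 5 genes were under the low-count filter of the OPC comparison. In the fit of all 16 libraries their OPC log2 fold changes, Ad-PPARg minus Ad-GFP, were -0.62 (SE 0.58) for ENSOCUG00000026015, 0.47 (SE 0.90) for ENSOCUG00000017453 and 0.46 (SE 0.72) for ENSOCUG00000002957. They were -0.40 (SE 0.85) for ENSOCUG00000009084 and 0.32 (SE 0.82) for ENSOCUG00000010079. These 5 genes passed the filter of that fit only through microglia, where they were chosen, so the values are a description without a test. The widest 95% interval was that of ENSOCUG00000017453, from -1.45 to 2.38. Leaving out OPC Ad-PPARg replicate 2, OPC Ad-GFP replicate 1 or OPC Ad-GFP replicate 3 turned the sign of at least 1 of the last 4. Without OPC Ad-GFP replicate 3 the values were 1.90 (SE 1.03) for ENSOCUG00000017453, 1.71 (SE 0.73) for ENSOCUG00000002957, 1.21 (SE 0.92) for ENSOCUG00000010079 and 0.38 (SE 0.93) for ENSOCUG00000009084.

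**Figure D3:**
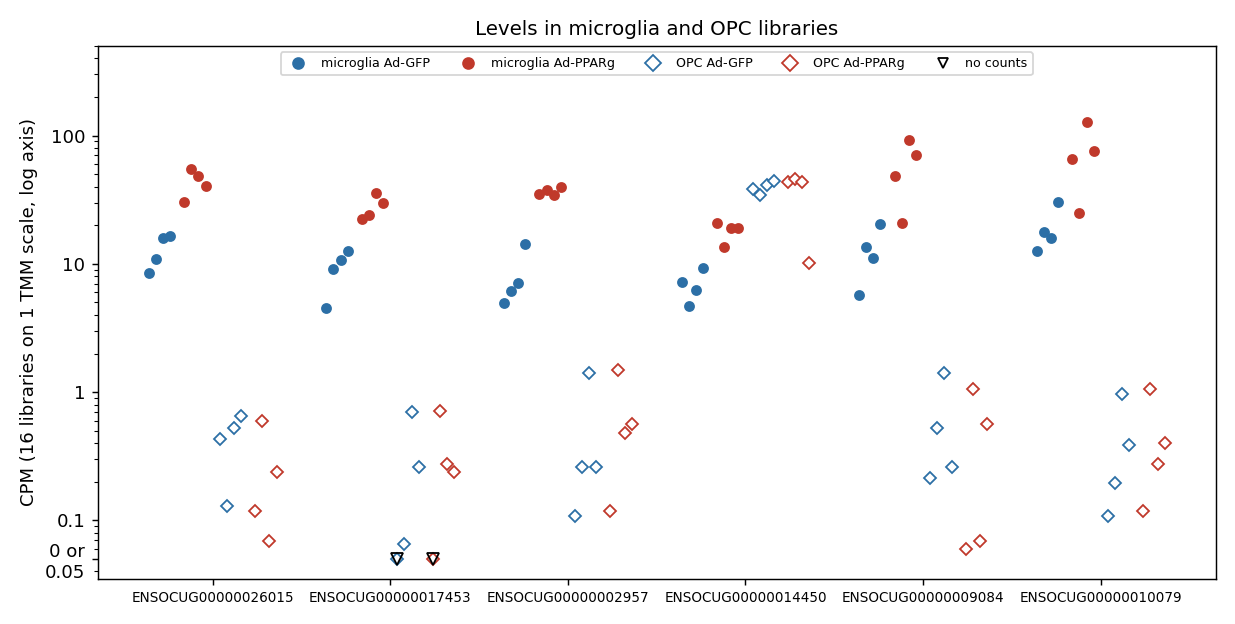
Level of each gene in each library, in CPM with all 16 libraries on 1 TMM scale, on a log axis. Filled circles stand for microglia, open diamonds for OPC, red for Ad-PPARg and blue for Ad-GFP, and triangles mark the 2 libraries without counts, drawn at 0.05. ENSOCUG00000014450 is higher in OPC, where 1 Ad-PPARg library stands at 10.1, and the other 5 genes are lower in OPC.

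Between the cell types, 5 of the 6 genes had a lower fitted level in OPC than in microglia and 1 had a higher one, over the mean of both treatments. Of the 14699 genes compared, 33.4% were lower and 35.1% higher in OPC at an edgeR adjusted p under 0.05, so a difference in either direction was common. The 5 genes passed the filter on low counts only through microglia, where they were chosen, so their differences are a description without a test. The log2 difference, OPC minus microglia, was -6.44 (SE 0.48) for ENSOCUG00000010079 and -6.14 (SE 0.34) for ENSOCUG00000026015. It was -5.88 (SE 0.52) for ENSOCUG00000017453, -5.70 (SE 0.52) for ENSOCUG00000009084 and -4.90 (SE 0.46) for ENSOCUG00000002957. A difference of at least 16-fold in this direction was found in 828 genes, these 5 included. All 8 microglia libraries were above all 8 OPC libraries in these 5 genes. The share of all genes apart in this way is not given here, so nothing is read from that.

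For ENSOCUG00000014450, which passed the filter in both cell types, the log2 difference was 1.77 (SE 0.25). Its microglia libraries are those that chose the gene, so this too is a description without a test. The name "microglial" describes where its level differed by treatment and not where it was highest. Within each treatment, where the microglial values are those that chose the gene and no test is given, the difference was 2.55 (SE 0.37) among Ad-GFP libraries and 0.98 (SE 0.34) among Ad-PPARg libraries. On raw totals its level in microglia was 11.7% of that in OPC after Ad-GFP and 35.5% after Ad-PPARg. The 742 OPC-enriched genes stood in the same microglia libraries at 0.756 to 3.69% of their OPC mean, a class picked for being low in microglia. Their share of counts in microglia was 0.331, 0.226, 0.495 and 0.234% in Ad-PPARg replicates 1 to 4 and 0.101, 0.337, 0.252 and 0.208% in Ad-GFP replicates 1 to 4. These groups overlapped, with the highest share in Ad-PPARg replicate 3. The part of OPC RNA in the microglial levels of ENSOCUG00000014450 was not tested.

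The treatment effect in OPC minus that in microglia was negative in all 6 genes, from -2.61 (SE 1.04) for ENSOCUG00000009084 to -1.14 (SE 1.12) for ENSOCUG00000017453. This difference contains the comparison that chose the genes, so it carries no test. For ENSOCUG00000017453 it was 0.30 without OPC Ad-GFP replicate 3.

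Exon lengths showed what the neighbouring pairs had in common. ENSOCUG00000026015 and ENSOCUG00000017453 shared a run of 5 consecutive exons of the same lengths, 142, 134, 259, 99 and 141 bases, and 9 exon lengths in the same order in all. Of the 15937 genes compared with each, 9 others shared a run of at least 3 exon lengths with them, and all 9 lay on chromosome 5 between 22331604 and 22559208. Of these 9, 5 were under the low-count filter in microglia, with means of 0.176 to 0.720 CPM. The other 4 were tested, all with a higher fitted level after Ad-PPARg, as had 6986 of the 13041 genes tested. Only 1 of the 4 had groups that did not overlap. That gene, at 22347363 to 22355288, averaged 553.5 ± 60.2 CPM after Ad-PPARg and 401.5 ± 55.2 CPM after Ad-GFP (SD, n = 4 each), and the fitted log2 fold change was 0.46 (SE 0.14). The rest of the 4 averaged 0.460 to 2.40 CPM, and the SE of their log2 fold changes ran from 0.77 to 1.05. Genes of like structure can share reads, and the sources used here do not say how the authors counted such reads. Levels within this group of genes are therefore uncertain.

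The share of each gene in the counts of its pair varied little between most libraries. ENSOCUG00000026015 took 54.7 to 59.7% of the counts of the chromosome 5 pair in 6 of the 8 microglia libraries. It took 69.4% (95% Wilson interval 66.4 to 72.3%) in Ad-PPARg replicate 2 and 65.4% (57.1 to 72.9%) in Ad-GFP replicate 1, both libraries with the low mitochondrial genes. Ad-PPARg replicate 1, the third such library, stood at 57.8%. ENSOCUG00000010079 took 52.1 to 59.9% of the counts of the chromosome 1 pair in 7 libraries and 68.8% (61.9 to 75.0%) in Ad-GFP replicate 1. These intervals cover counting error only.

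The chromosome 1 pair had 2 exon lengths in common in order, 57 and 102 bases. Of the 15 other genes with at least 3 exons within 400 kb, 6 also held a 57-base exon, as did 781 of the 15938 such genes in the files (4.90%). None of these 6 was tested in microglia, with means of 0.0158 to 0.501 CPM. ENSOCUG00000014450 shared a run of 6 exon lengths with 1 gene, at 824359 to 862443 on scaffold GL018796, which stood at 230.1 ± 23.0 CPM after Ad-PPARg and 207.0 ± 19.7 CPM after Ad-GFP (SD, n = 4 each), and the fitted log2 fold change was 0.15 (SE 0.12). ENSOCUG00000010079 shared a run of 3 exon lengths, 57, 159 and 102 bases, with 1 gene, at 192825931 to 192833039 on the plus strand. That gene was under the low-count filter, at 0.332 CPM in Ad-PPARg and 0.221 CPM in Ad-GFP microglia. ENSOCUG00000002957 and ENSOCUG00000009084 shared no run of at least 3 exon lengths. ENSOCUG00000009084 overlapped a short gene on the other strand with at most 2 counts in any library, and the other 5 overlapped none.

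Genes near the 6 were looked at in the same libraries. Within 400 kb lay 91 other genes, of which 49 were tested in microglia, and 4 of these (8.16%) had Ad-PPARg libraries all above the Ad-GFP libraries, beside 1.84% of all genes. The log2 fold changes of these 4 ran from 0.09 to 1.17. They included the gene of like structure at 22347363 to 22355288, which may share reads with the chromosome 5 pair. With only 4 genes, nothing is read from that share. By locus, a higher fitted level was found in 15 of 23 tested genes around the chromosome 5 pair (median log2 fold change 0.14), 6 of 16 around ENSOCUG00000002957 (median -0.11), 5 of 8 around ENSOCUG00000014450 (median 0.08) and 0 of 2 around the chromosome 1 pair (median -0.20). Among all genes tested, 6986 of 13041 had a higher fitted level. The nearest genes of both pairs, on either side, were under the low-count filter. Those of ENSOCUG00000002957 had log2 fold changes of -0.21 (SE 0.15) below it and 0.10 (SE 0.26) above it.

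Below ENSOCUG00000014450 lay 2 genes with fold changes near its own. The nearest, at 115358582 to 115383395, stood at 3.87, 1.34, 1.42 and 2.502 CPM in Ad-PPARg replicates 1 to 4 and at 0.724, 1.01, 1.07 and 1.19 CPM in Ad-GFP replicates 1 to 4. The groups were apart at these low levels, and the fitted log2 fold change was 1.17 (SE 0.47). The next gene below, at 115326306 to 115352082, which was singled out after its values were seen, stood at 95.9, 30.4, 122.6 and 106.1 CPM after Ad-PPARg and at 16.6, 25.1, 20.9 and 33.7 CPM after Ad-GFP. Its groups overlapped through Ad-PPARg replicate 2, as in the chromosome 1 pair, and its log2 fold change was 1.89 (SE 0.40). The nearest gene above ENSOCUG00000014450, at 115617959 to 115721524, averaged 3.61 ± 1.94 and 3.48 ± 0.185 CPM (SD, n = 4 each), and the fitted log2 fold change was 0.06 (SE 0.37). Around the chromosome 5 pair, the highest fold change was 1.92 (SE 1.05), in 1 of the genes of like structure, at 22494669 to 22498303, with 1.41 ± 0.754 and 0.460 ± 0.785 CPM (SD, n = 4 each) and overlapping groups.

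**Figure D4:**
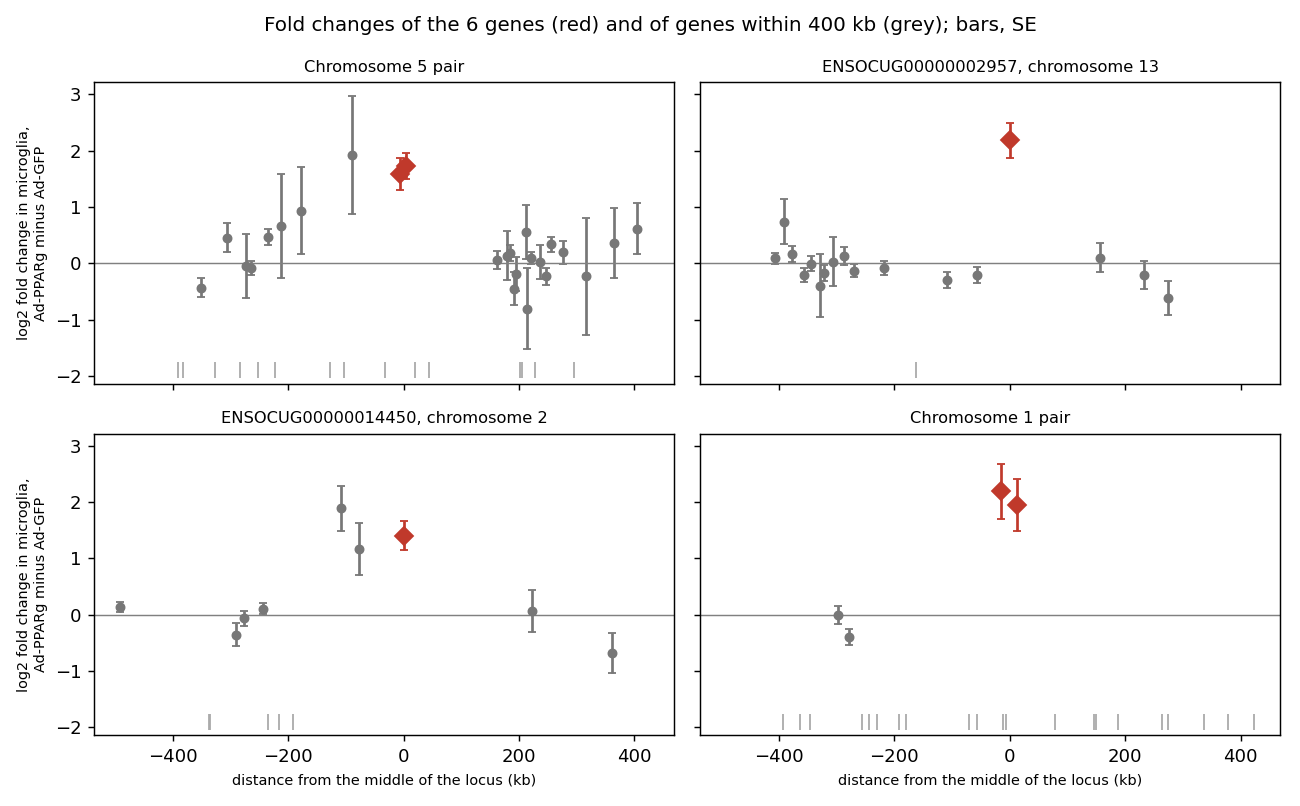
Log2 fold change in microglia, Ad-PPARg minus Ad-GFP, against distance from the middle of each of the 4 loci in kb, with the 6 genes in red, other genes in grey and bars for the SE. Grey ticks mark genes under the low-count filter. The 6 genes lie at 1.41 to 2.19, and the genes around ENSOCUG00000002957 lie between -0.61 and 0.74.

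Co-variation within treatments was tested as a relation that the choice of genes did not use. It was computed in the same 8 microglia libraries. Their spread within treatments enters the p-values that chose the genes. With the treatment means removed from log2 CPM, the 2 chromosome 1 genes moved together over the 8 microglia libraries, with a Pearson r of 0.954 (two-sided exact permutation p = 0.00174, adjusted 0.0260 over 15 pairs) and a Spearman rho of 0.952 (adjusted exact permutation p = 0.0260). With upper-quartile scaling r was 0.958 and the adjusted exact permutation p 0.0521, no longer under 0.05. The unadjusted p of the main scaling is the smallest that the 576 permutations of libraries within treatments allow. Without Ad-PPARg replicate 3 and Ad-GFP replicate 1, r was 0.984. These 2 libraries were farthest from the median level of ENSOCUG00000009084 before the treatment means were removed. Ad-PPARg replicate 2, which was farthest after that removal, was kept there. With each library left out in turn, r ran from 0.910 to 0.987. Ad-PPARg replicate 2 was lowest and Ad-PPARg replicate 3 and Ad-GFP replicate 4 were highest in both genes, relative to their treatment. The libraries with low and full mitochondrial genes number 3 and 5, too few for an r within each, and libraries of 1 prefix are not independent. The permutation treated the libraries of a treatment as exchangeable, so its p-values do not allow for the prefix.

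The chromosome 5 genes had an r of 0.755 (exact permutation p = 0.0660, adjusted 0.247) and a rho of 0.595 (adjusted exact permutation p = 0.475). Without Ad-GFP replicates 1 and 2 r was 0.217, and with 1 library left out it ran from 0.464 to 0.940, so it depended on which libraries were kept. Of the other 13 pairs, 12 had a positive r, with a median of 0.536 and a range of -0.0039 to 0.804. The highest, ENSOCUG00000017453 with ENSOCUG00000009084, had an adjusted exact permutation p of 0.0781. In all, 1 of 15 pairs passed an adjusted p of 0.05 with TMM scaling. How often pairs of other genes reach such an r in these libraries is not given here. Whether the positive r or the share of pairs that passed is particular to the chosen genes was therefore not tested.

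**Figure D5:**
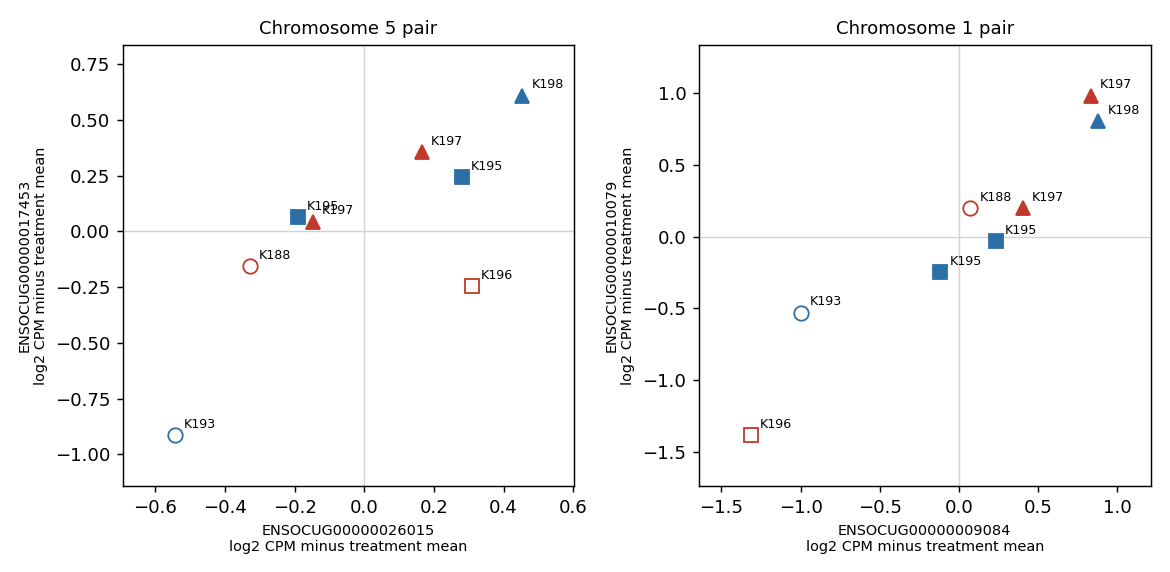
Log2 CPM of the 2 genes of each pair in the 8 microglia libraries, each minus the mean of its treatment. Labels give the prefix, red stands for Ad-PPARg, blue for Ad-GFP, and open symbols for libraries with the low mitochondrial genes. The chromosome 1 pair lies along 1 line (r 0.954), and the chromosome 5 pair does so less (r 0.755), with K196 off the line and K193 far from the rest.

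Across all 16 libraries, the gene outside the 6 most like each of them, among 14699 tested, had a Pearson r of log2 CPM of 0.988 for ENSOCUG00000026015 (chromosome 12, 94650495 to 94702099), 0.988 for ENSOCUG00000017453 (chromosome 8, 33364827 to 33389948) and 0.983 for ENSOCUG00000002957 (chromosome 13, 39016888 to 39018876). It was 0.990 for ENSOCUG00000009084 (chromosome 2, 90431206 to 90467449) and 0.997 for ENSOCUG00000010079 (chromosome 19, 23720256 to 23721930). For ENSOCUG00000014450 the closest gene, on scaffold GL018767 from 419047 to 454883, reached an r of 0.956. The points share the difference between the cell types, and the correlations are a description. In the order given, these closest genes averaged 88.1, 301.7, 8.23, 63.1, 67.5 and 46.1 CPM in Ad-PPARg microglia. In Ad-GFP microglia they averaged 52.1, 82.2, 3.32, 20.8, 25.7 and 34.6 CPM.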

How the data were processed

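Per the labels' protocols, total RNA of the sorted cells was sequenced in paired-end mode. The tools listed in the submitters' processing notes are STAR 2.5.2b, Subread 1.5.2 and bcl2fastq 2.17. The authors deposited unnormalized read counts, 1 table for each library. Neither the genome build nor the use of strand in counting is given in the sources used here. Reads of overlapping or alike genes may therefore be split.

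The 6 genes, and the lists and tests, were chosen with earlier results of these data known. The named genes are the 6, the most alike gene of each over 16 libraries (Pearson r of log2 CPM, prior count 2), the nearest gene on each side of each locus, and the genes next in p to the last of the 6. Marker lists could not be used without gene names.

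Each treatment comparison used its own fit of 8 libraries, and the cell types a fit of 16. The test was the quasi-likelihood test of edgeR 4.0.16 in R 4.3.3 (robust, TMM, default low-count filter, Benjamini-Hochberg over all genes). CPM use TMM-scaled totals of the cell type's own fit unless another scale is named. The SE is the size of the log2 fold change divided by the square root of F, and intervals use the fit's degrees of freedom. Alternatives used DESeq2 1.42.0 and limma 3.58.1. The fits were tested on simulated data. Totals of 6.24 to 17.6 M (mega) counts give each microglial value 47 to 1549 counts.

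Each library of a group came from another animal by the identifiers, which also pair the cell types in 6 animals. Over 14699 genes, the deviations of their 2 libraries from the group means had correlations of -0.12 to 0.27 (median 0.0596). A chi-square test of counts gave 6.57 to 211 units a gene for the 24 pairs inside groups, so no library was taken as a repeat of another.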

Additional observations from a re-analysis of the deposited data

Results flagged for a closer look

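In the 24 groups of 4 libraries, a single library was set far from the other 3 in 2 cases, by the size of its gap relative to the group's range. Chance alone gives about 1 in 20 such groups. ENSOCUG00000014450 stood at 11.8 CPM in OPC Ad-PPARg replicate 4, against 52.0 to 57.7 CPM in the other 3 Ad-PPARg libraries. ENSOCUG00000002957 stood at 1.75 CPM in OPC Ad-GFP replicate 3, against 0.126 to 0.310 CPM in the other 3 Ad-GFP libraries.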

How the results depend on the processing

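Of 560 values recomputed under other settings, 526 kept their direction and their side of the threshold, or moved by less than the spread. Among them were all 48 microglial fold changes of the 6 genes under other settings, all 48 with 1 library left out, and all 36 and 96 such values of the OPC minus microglia difference. These values reuse the microglia libraries that chose the genes. That they kept their direction is therefore a description and no separate support. With a replicate block (the animal, in the 12 libraries of animals with both cell types) the difference of ENSOCUG00000014450 was 1.97, against 1.83 in those libraries without the block, a setting added after seeing the data. The block changed the direction of none of the 6 genes.

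The OPC fold change of ENSOCUG00000014450 turned from -0.13 to 0.18 with the mitochondrial covariate and to 0.21 in libraries with full mitochondrial genes, was -0.46 with the prefix as a random block, and ran from -0.27 to 0.18 with 1 library left out, the highest without Ad-PPARg replicate 4. The cause was not tested. In the fit of 16 libraries, leaving out 1 library gave OPC fold changes of -0.42 to 1.90 for ENSOCUG00000017453, -0.35 to 1.71 for ENSOCUG00000002957, -1.43 to 0.38 for ENSOCUG00000009084 and -0.54 to 1.21 for ENSOCUG00000010079. The difference of effects for ENSOCUG00000017453 ran from -2.02 to 0.30.

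Genes called in microglia numbered 0 in edgeR, 102 in DESeq2, 4 without the filter, 1 with the prefix as a random block, 80 with the mitochondrial covariate and 57 in libraries with full mitochondrial genes. With 1 library left out they numbered 0 to 4 (4 when this was Ad-PPARg replicate 2, 3 when it was Ad-GFP replicate 4, 1 when it was Ad-GFP replicate 1). In OPC they numbered 0 in edgeR, 7 in DESeq2, 1 with the covariate, 47 in the full libraries, and 0 to 2 with 1 library left out (2 without Ad-PPARg replicate 4). The r of the chromosome 1 pair was 0.958 with upper-quartile scaling (adjusted exact permutation p 0.0521) and 0.910 to 0.987 with 1 library left out, where the adjusted p was 0.104 in each case because 7 libraries allow no smaller one. Counts of 0 to 25 in OPC limit 5 of the 6 genes there.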
